A study of Nasonia vitripennis with 140 samples.

Results

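Gene expression in control female larvae of the parasitoid wasp Nasonia vitripennis was compared between day 9 and day 7 by RNA sequencing. The comparison used 10 of the 140 libraries of the study, 5 per age, which were those labelled as GFP females at each larval age. All were whole larvae of the AsymCX strain reared on Calliphora hosts, each library was made from 3 pooled individuals, and every larva in both groups had been injected with double-stranded RNA against GFP, a jellyfish gene that the wasp lacks, at 4 µg/µl. Collection followed injection by 3 days in both groups, so that the day 7 larvae had been injected at day 4 and the day 9 larvae at day 6. The day 7 larvae were put back into host puparia after injection, whereas the day 9 larvae were kept off the host on agar plates, so the effects of age, of age at injection and of access to the host cannot be told apart here. The labels do not say how larvae were sexed, and nothing says that the 5 libraries of an age came from separate cultures, so p-values measure only the spread between these libraries.

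Larvae of holometabolous insects grow between moults, and the steroid 20-hydroxyecdysone triggers each moult and the onset of metamorphosis. At a moult the epidermis lays down a new cuticle of chitin and structural proteins, chitinases and proteases break down the old one, and peptide hormones drive its shedding. Before the pupa forms, the fat body makes hexamerins, storage proteins that supply amino acids during metamorphosis, and larval tissues stop growing while adult nerve and muscle are built. Whole larvae mix all tissues, so fewer cells of a type and less RNA per cell cannot be told apart in what follows.

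The libraries held 64442654 to 88507137 counts at day 7 and 71510529 to 74813719 at day 9. Levels are given as CPM, counts relative to a library total scaled by the trimmed mean of M-values over these 10 libraries, and they are not divided by transcript length, so they are compared between libraries and not between genes. The 10 genes with the most counts took 18.3% to 21.2% of a library at day 7 and 9.89% to 12.2% at day 9. On the first principal component, which held 85.9% of the variance, the ages separated fully, and the second, with 3.9%, set replicates 2 and 4 of day 9 apart from replicates 1, 3 and 5. Day 7 replicate 5 also stood apart in the genes of several lists below. Transformer (Tra), whose female form directs female splicing, stood at 149 ± 7.15 and 166 ± 5.19 CPM (SD, n = 5) at the 2 ages in these libraries, scaled among themselves. In the libraries labelled as control males it stood at 24.7 ± 1.07 and 20.2 ± 0.942 CPM at the same ages. The male values come from scaling both sexes together, so the scales differ slightly.

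Most genes differed between the ages. Of 11574 genes with enough counts to test, 4268 (36.9%) were higher and 4121 (35.6%) lower at day 9 at an adjusted p under 0.05, and 1724 (14.9%) and 1520 (13.1%) of them also differed by at least 2-fold. For 7091 genes (61.3%) the 5 libraries of one age did not overlap the 5 of the other. The median log2 fold change over all tested genes was 0.03. Scaling by library totals alone moved that median to 0.27, and the share of calls that were higher went from 50.9% to 68.1%, so the balance between rises and falls depends on the scaling, and a list is read against the counts and the median of all genes. Of the 83 genes named in these results, 48 overlap another annotated gene, and with the strand setting of the counting unknown, reads of overlapping genes cannot be told apart.

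Cuticle genes were among those that fell furthest. CPLCP2 and CPLCP1, proline-rich cuticle proteins of low complexity with the highest mean levels of any genes at day 7, and CPR1, a chitin-binding cuticle protein of the Rebers and Riddiford (CPR) family, were among the 5 genes with the most counts at that age. CPLCP2 stood at 33268, 44452, 47089, 36468 and 45378 CPM in day 7 replicates 1 to 5 and at 11.1, 140, 15.3, 53.6 and 13.3 CPM in the day 9 replicates. Every day 9 library lay far below every day 7 library, and within day 9 replicates 2 and 4 were the highest. The log2 fold change was -9.79 (standard error 0.99, adjusted p = 6.18e-06), and -11.61 without those replicates. CPR1 stood at 17664, 17850, 20253, 21552 and 17422 CPM at day 7 and at 17.4, 9.35, 23, 7.8 and 17 CPM at day 9, where the same 2 libraries were the lowest. Its log2 fold change was -10.31 (standard error 0.44, adjusted p = 1.73e-08).

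CPR37 had the smallest standard error of the falling cuticle genes named here. Its day 7 libraries held 2184, 3041, 2844, 2138 and 2578 CPM, and its day 9 libraries 20.3, 23.6, 17.4, 22.8 and 21.6 CPM, a log2 fold change of -6.92 (standard error 0.17, adjusted p = 1.14e-09). The spread among the day 9 libraries was small here, and replicates 2 and 4 did not stand apart from the others by more than a few CPM. CPR59 fell from 5844 ± 1730 to 0.427 ± 0.227 CPM (log2 fold change -13.72 with standard error 0.56, adjusted p = 1.27e-08). CPLCP1 fell from 39682 ± 7495 to 1286 ± 1391 CPM, with 2884 and 2669 CPM in day 9 replicates 2 and 4 and between 53.6 and 749 CPM in the other 3, and its log2 fold change of -4.95 (standard error 1.10, adjusted p = 0.00196) became -7.09 without those replicates. Cpap3-b, a cuticle protein with peritrophin-like chitin-binding domains, fell from 1237 ± 300 to 198 ± 82.6 CPM (log2 fold change -2.64 with standard error 0.30, adjusted p = 1.48e-05).

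As a group, 17 of the 29 tested CPR genes were lower and 7 higher, each by at least 2-fold, and 5 did not pass the test. These were 58.6% and 24.1%, against 13.1% and 14.9% of all genes. The table holds 35 CPR genes, of which 6 had too few counts. The median log2 fold change of the 29 was -3.22 against 0.03 over all genes, and their summed level went from 24934 to 37637 CPM across the day 7 libraries to 182 to 426 CPM across the day 9 libraries. Without day 9 replicates 2 and 4, 20 were lower and 7 higher. Genes of this family are alike in sequence, and it is not known how reads that fit several of them were counted, so single members are less certain than the group.

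Several of the strongest falls lay side by side. From CPR1 to CPR15 the reference gene order holds 17 consecutive genes, a block picked out after its values were seen and therefore given without a test of its own. Of its 14 tested genes 13 were lower by at least 2-fold and 1, LOC100679435, was higher. The block's tested genes summed to 27754 CPM at day 7 and 17.8 CPM at day 9. CPR14 held 422, 774, 243, 684 and 4014 CPM at day 7, where replicate 5 was the highest by far, and 3 counts in all at day 9, a ratio of 158076 with a 95% counting interval of 54091 to 766526. Without day 7 replicate 5 that ratio was 70588 (24154 to 342288). CPR13 and CPR15, its neighbours, fell from 833 ± 934 to 0.0644 ± 0.0479 CPM and from 668 ± 615 to 0.0176 ± 0.0199 CPM, again with the highest day 7 value in replicate 5. CPR7 (184 ± 202 CPM at day 7, 3 counts in all at day 9), CPR8 (12.2 ± 7.6 CPM, 2 counts) and CPR9 (20.7 ± 22.9 to 0.0706 ± 0.0622 CPM) also had their highest day 7 value in replicate 5. Without day 7 replicate 5 the log2 fold changes of CPR13, CPR15 and CPR9 were -12.67, -14.34 and -7.16, against -13.65, -15.08 and -8.13 with it.

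**Figure D1:**
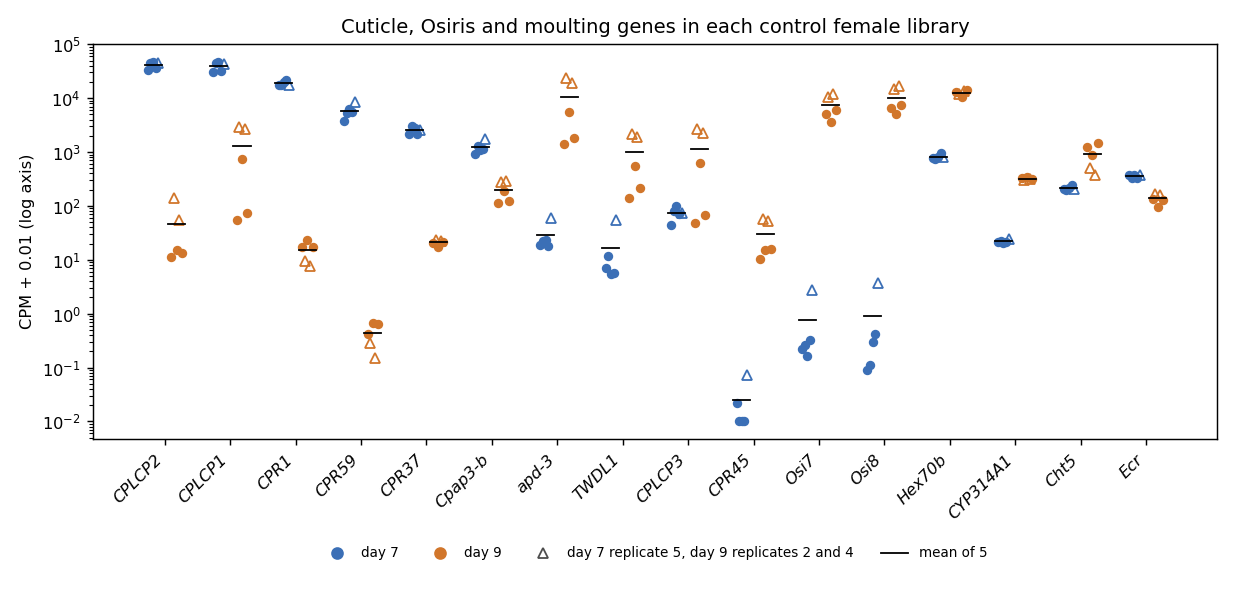
Levels of 16 cuticle, Osiris, storage and moulting genes in each control female library, as CPM plus 0.01 on a log axis, with day 7 in blue, day 9 in orange and the mean of 5 libraries as a bar. Open triangles mark day 7 replicate 5 and day 9 replicates 2 and 4, which stand apart from the other libraries of their age in TWDL1, apd-3, Osi7 and Osi8, while Hex70b and CYP314A1 vary little within an age.

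Other cuticle genes rose at day 9, and day 9 replicates 2 and 4 held the highest values of most of them. The apidermin apd-3, a hydrophobic cuticle protein first described in the honeybee, stood at 18.4, 22.4, 23.4, 17.8 and 60.5 CPM at day 7 and at 1416, 23376, 5500, 19527 and 1832 CPM at day 9. All day 9 libraries exceeded all day 7 libraries and within day 9 replicates 2 and 4 were far above the other 3. Its log2 fold change was 8.50 (standard error 1.05, adjusted p = 2.87e-05) with all libraries and 6.67 without those replicates. TWDL1, of the Tweedle family of cuticle proteins, went from 16.8 ± 21.2 to 992 ± 965 CPM (log2 fold change 5.88 with standard error 1.10, adjusted p = 0.00062), 4.15 without day 9 replicates 2 and 4 and 7.06 without day 7 replicate 5. apd-1 rose from 0.187 ± 0.163 to 16.1 ± 9.52 CPM, with a log2 fold change of 6.36 (standard error 0.66, adjusted p = 7.06e-06), 5.66 without the same pair.

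The call of CPLCP3 rests on those libraries. It held 45.2, 79.4, 98.4, 70.1 and 75.3 CPM at day 7 and 47.7, 2708, 616, 2275 and 68.1 CPM at day 9, so that day 9 replicates 1 and 5 lay inside the day 7 range. Its log2 fold change of 3.96 (standard error 1.03, adjusted p = 0.00531) became 1.72 without replicates 2 and 4 (adjusted p = 0.0588). The CPR genes that rose did so in every day 9 library. CPR49 went from 13.9 ± 2.87 to 70.6 ± 6.48 CPM (log2 fold change 2.35 with standard error 0.14, adjusted p = 1.14e-07). CPR53 rose from 1.58 ± 0.638 to 49.7 ± 42.4 CPM (log2 fold change 4.97, and 3.60 without the pair), and CPR45 from 0.0148 ± 0.0271 to 30.5 ± 23.3 CPM, with 5 counts in all at day 7. Of the 13 tested cuticle genes outside the CPR family 7 were higher and 5 lower with all libraries, and 5 higher and 6 lower without day 9 replicates 2 and 4. With all libraries the shares were 53.8% and 38.5%, against 36.9% and 35.6% of all genes.

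The Osiris genes moved from near 0 to among the most counted genes of the day 9 larva. They form an insect gene family that lies in one conserved cluster, and in Drosophila members act in epidermal and tracheal cells at the time cuticle is made. Osi7 stood at 0.21, 0.251, 0.155, 0.317 and 2.77 CPM at day 7 and at 5102, 10669, 3651, 12028 and 6156 CPM at day 9. Osi8 stood at 0.0816, 0.103, 0.293, 0.412 and 3.64 CPM at day 7 and at 6552, 14698, 5120, 16513 and 7535 CPM at day 9. In both genes day 7 replicate 5 was the highest of its age, day 9 replicates 2 and 4 were the highest of theirs, and the ages did not overlap. The log2 fold changes were 13.32 for Osi7 (standard error 1.17, adjusted p = 2.08e-06) and 13.45 for Osi8 (standard error 1.39, adjusted p = 7.22e-06). Without day 7 replicate 5 they were 14.96 and 15.50, and without day 9 replicates 2 and 4 they were 12.73 and 12.80. Osi19, the only other gene with an Osiris symbol in the table and low at both ages, had 14 counts in all at day 7 and 102 at day 9 (log2 fold change 2.55 with standard error 1.02, adjusted p = 0.0433), its ages overlapped, and leaving out 1 library removed the call for 7 of the 10 libraries.

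The genes beside them moved in the same direction. In the reference gene order 20 consecutive genes from Osi19 to LOC100117666, a block again picked after its values were seen, were all called higher by at least 2-fold, which was the longest such run in that order. The table gives 17 of the 20 no name beyond a placeholder, so nothing is said here of what they encode. The block summed to between 12 and 46.8 CPM in the day 7 libraries and between 20005 and 64991 CPM in the day 9 libraries, with the highest sums in day 7 replicate 5 and day 9 replicates 2 and 4. LOC103317766, in the block, had 0 counts at day 7 and 36.1 ± 10.3 CPM at day 9, at least 4090-fold higher against a floor of 3 counts over the day 7 libraries. The log2 fold changes of the others ran from 1.02 to 13.45, and the median of the 20 was 8.45, also with that gene at its bound. LOC100117781, with the highest mean level of any gene at day 9, lies in it. It took the most counts in replicates 2 and 4 and in neither replicate 1, 3 nor 5. It went from 3.17 ± 2.99 to 17970 ± 8159 CPM (log2 fold change 12.47 with standard error 0.90, adjusted p = 5.18e-07). Without day 9 replicates 2 and 4, 18 of the 20 remained called higher.

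**Figure D2:**
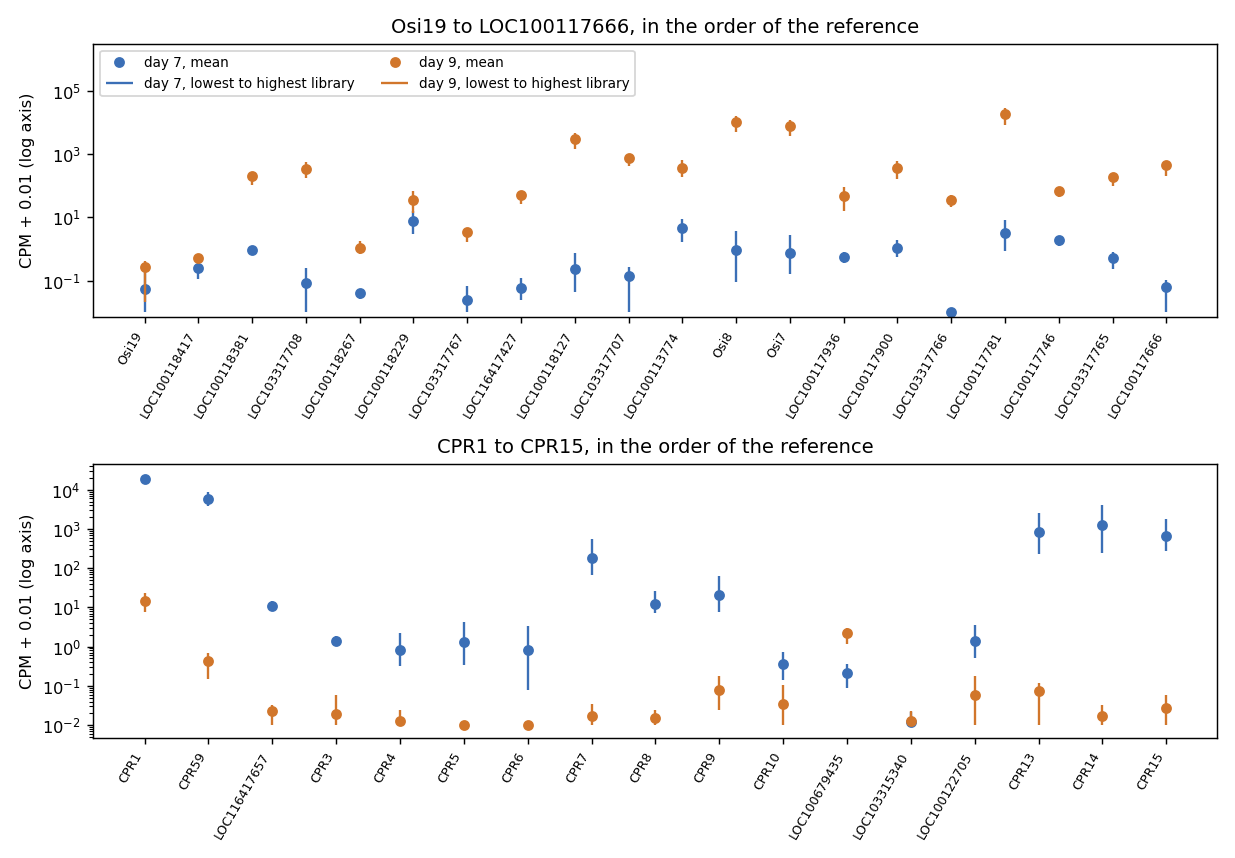
Mean CPM plus 0.01 on a log axis for consecutive genes in the order of the reference, day 7 in blue and day 9 in orange, with lines from the lowest to the highest of 5 libraries. In the upper panel, from Osi19 to LOC100117666, the day 9 mean lies above the day 7 mean throughout, although the libraries of Osi19 overlap, and in the lower panel, from CPR1 to CPR15, the day 9 mean lies below day 7 for every CPR gene, while LOC100679435 goes the other way and LOC103315340 is near 0 at both ages.

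The 5 genes of ecdysteroid signalling and moulting in the list all changed by at least 2-fold, 2 upward and 3 downward. Of all tested genes 14.9% were higher and 13.1% lower by at least 2-fold. CYP314A1, the cytochrome P450 shade that turns ecdysone into 20-hydroxyecdysone, held 21.5, 22.6, 20.3, 21.2 and 23.8 CPM at day 7 and 328, 302, 340, 319 and 317 CPM at day 9. Neither age had a library that stood apart, and the log2 fold change was 3.88 (standard error 0.06, adjusted p = 9.91e-11). Ecr, the ecdysone receptor, went the other way, from 360 ± 24.9 to 138 ± 28.3 CPM (log2 fold change -1.38 with standard error 0.14, adjusted p = 4.75e-06), with no overlap.

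Cht5, a chitinase of the moulting fluid, held 210, 200, 214, 245 and 210 CPM at day 7 and 1258, 511, 891, 380 and 1490 CPM at day 9. All day 9 libraries were higher, and here replicates 2 and 4 were the lowest of them. Its log2 fold change was 2.07 (standard error 0.34, adjusted p = 0.000237). Eth, which encodes ecdysis triggering hormone, the peptide that starts the shedding of the old cuticle, fell from 5.91, 7.23, 8.18, 5.78 and 9.9 CPM to 0.106, 0, 0.0843, 0 and 0.0119 CPM, with 17 counts in all at day 9 (log2 fold change -7.40 with standard error 0.54, adjusted p = 5.41e-07). Burs, for bursicon, the hormone of cuticle hardening after a moult, fell from 6.05 ± 0.981 to 0.597 ± 0.148 CPM (log2 fold change -3.34 with standard error 0.19, adjusted p = 1.06e-07), and its annotated span overlaps 74 other genes. No gene of juvenile hormone synthesis or response could be found by symbol.

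Among the storage proteins, the hexamerin Hex70b rose to be one of the 5 most counted genes at day 9. Its libraries held 780, 756, 794, 941 and 808 CPM at day 7 and 12925, 11774, 10722, 13650 and 13961 CPM at day 9, where replicates 2 and 4 lay among the others. The log2 fold change was 3.95 (standard error 0.17, adjusted p = 1.73e-08). Hex109 fell from 22.1 ± 4.94 to 5.08 ± 1.04 CPM (log2 fold change -2.12 with standard error 0.19, adjusted p = 2.43e-06), and Hex83, named to complete the count of 3, did not pass the test.

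Genes of the yellow and major royal jelly protein family, of which some yellow genes are known in insects for cuticle pigmentation, moved both ways. Of 13 tested members 6 (46.2%) were higher and 3 (23.1%) lower, against 36.9% and 35.6% of all genes, so no direction is read for the family. Mrjpl8 rose from 0.464 ± 0.0841 to 221 ± 155 CPM (log2 fold change 8.90 with standard error 0.62, adjusted p = 3.67e-07), with 364 and 413 CPM in day 9 replicates 2 and 4 against 82.2 to 145 CPM in the other 3, and 7.90 without that pair. Y-h rose from 2.84 ± 2.56 to 56.9 ± 39.6 CPM (log2 fold change 4.33 with standard error 0.67, adjusted p = 0.000161), 3.31 without the pair and 5.06 without day 7 replicate 5. Y-x1c fell from 93 ± 31.7 to 25.7 ± 9.07 CPM (log2 fold change -1.85 with standard error 0.31, adjusted p = 0.000249). Of the 7 immune genes listed 2 were higher, ppo3 and Gnbp1-2, and 0 were lower, although 1 was called lower with DESeq2, upper quartile factors, the replicate block or the fit with both sexes, and without day 7 replicate 5 or day 9 replicate 2 or 4. ppo3, a prophenoloxidase, rose from 87.3 ± 23 to 309 ± 21.3 CPM (log2 fold change 1.82 with standard error 0.17, adjusted p = 2.68e-06).

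Genes of mitochondrial respiration rose together. The table holds 64 symbols of respiratory chain and ATP synthase subunits, 62 were tested, and all 62 were higher at day 9, 32 of them by at least 2-fold, against 36.9% and 14.9% of all genes. The ages overlapped in none of the 62, while 61.3% of all tested genes showed no overlap. Their median log2 fold change was 1.03, with a range from 0.37 for Cox6b1, of complex IV, to 1.58 for Cyc1, the cytochrome c1 of complex III. By complex, the medians were 0.98 for the 31 genes of complex I, 1.10 for 4 of complex II, 1.20 for 8 of complex III, 0.94 for 6 of complex IV and 1.00 for 13 of ATP synthase. Scaling by library totals and leaving out day 9 replicates 2 and 4 both left 62 of 62 higher.

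Atp5b, the catalytic beta subunit of ATP synthase, held 567, 571, 538, 587 and 565 CPM at day 7 and 1211, 1552, 1208, 1578 and 1325 CPM at day 9. The highest day 9 values were again in replicates 2 and 4, but each library exceeded the day 7 range by far more than the spread within it (log2 fold change 1.28 with standard error 0.10, adjusted p = 6.74e-07). Atp5a1 and Atp5g2, of the same enzyme, rose from 546 ± 15.1 to 1311 ± 178 CPM and from 747 ± 27.8 to 1536 ± 161 CPM. All 10 listed genes of mitochondrial protein import and the mitochondrial ribosome were higher too, 5 of them by at least 2-fold. Pmpcb, the beta subunit of the peptidase that trims imported proteins, rose from 117 ± 1.81 to 352 ± 50.6 CPM (log2 fold change 1.59 with standard error 0.09, adjusted p = 1.09e-07). Of 4 cytosolic ribosomal protein genes none was called higher and 1, Rpl39, was lower, although 2 were called higher when only library totals were used.

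**Figure D3:**
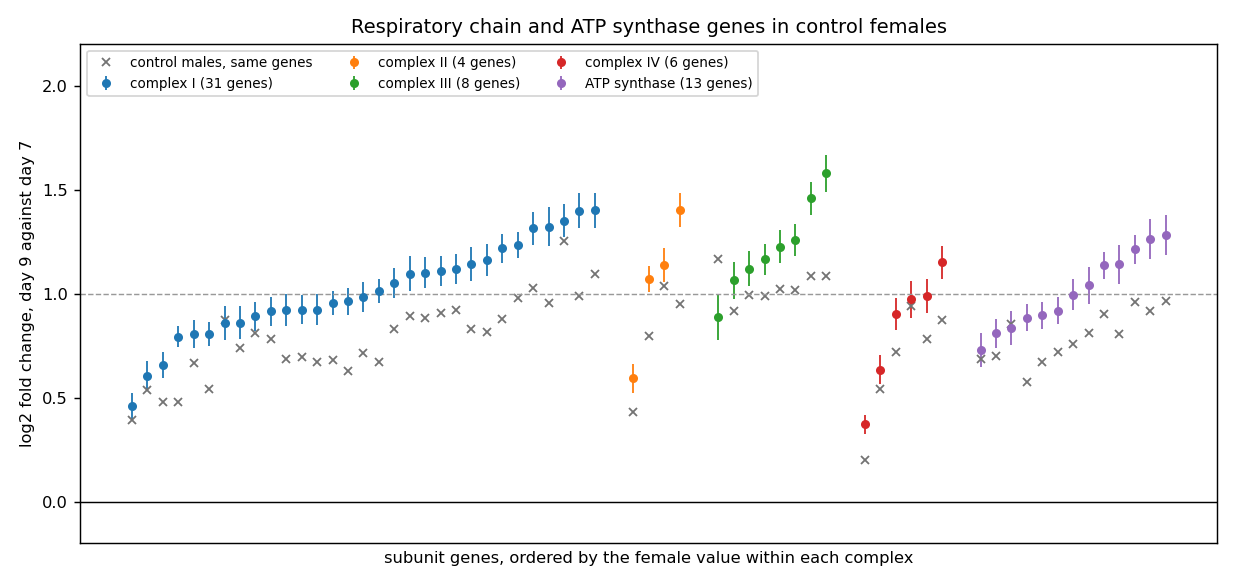
Log2 fold changes at day 9 against day 7 with their standard errors for the 62 tested subunit genes of the respiratory chain and ATP synthase in control females, grouped by complex, with the value in control males as a grey cross. All female values lie above 0, from 0.37 to 1.58, and the dashed line marks a 2-fold rise.

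Cell cycle genes fell, with 1 exception. Of 17 tested genes 15 were lower, 6 by at least 2-fold, and 1, Cenp-a, was higher, while E2f8, named to complete the count, did not pass. Of all tested genes 35.6% were lower, and 13.1% by at least 2-fold. The median log2 fold change was -0.80, and 12 were lower under scaling by library totals. cycB, the mitotic cyclin B, held 37.1, 38.2, 41.4, 35.4 and 36.7 CPM at day 7 and 6.99, 5.61, 6.66, 4.83 and 7.03 CPM at day 9, a log2 fold change of -2.60 (standard error 0.11, adjusted p = 1.41e-08). The libraries of each age lay close together and replicates 2 and 4 of day 9 were slightly lower than the rest. cycD and Cdk4, the cyclin and kinase that drive entry into the cell cycle, fell from 58.7 ± 2.87 to 14.9 ± 1.84 CPM (log2 fold change -1.98 with standard error 0.08, adjusted p = 1.73e-08) and from 127 ± 9.45 to 50 ± 7.48 CPM (log2 fold change -1.35 with standard error 0.10, adjusted p = 5.87e-07). Cenp-a, the histone of centromeres, rose from 26.5 ± 1.08 to 58 ± 7.76 CPM (log2 fold change 1.13 with standard error 0.09, adjusted p = 7.21e-07). It overlaps other annotated genes, and without strand information its reads cannot be told from theirs.

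DNA repair genes showed smaller changes, with 6 of 13 (46.2%) lower, 3 (23.1%) higher and a median of -0.19, and 2 lower under scaling by library totals. Over all genes 35.6% were lower and 36.9% higher, so no direction is read for this list. Of 13 patterning genes 9 (69.2%) were lower and 2 (15.4%) higher, against the same shares of all genes. Emc, a helix-loop-helix protein that holds back neural fate, fell from 163 ± 24.5 to 28.4 ± 5.99 CPM (log2 fold change -2.52 with standard error 0.16, adjusted p = 2.44e-07), and hairy, a transcriptional repressor, fell from 56.6 ± 4.15 to 27.8 ± 1.26 CPM (log2 fold change -1.02 with standard error 0.06, adjusted p = 1.1e-07). Hb, hunchback, a gap gene of the early embryo in Drosophila, was low at both ages and rose from 0.141 ± 0.0492 to 1.07 ± 0.639 CPM (log2 fold change 2.91 with standard error 0.49, adjusted p = 0.000309), 2.14 without day 9 replicates 2 and 4. oskar, a gene of germ plasm assembly, rose from 2.34 ± 0.402 to 5.35 ± 1.41 CPM (log2 fold change 1.19 with standard error 0.20, adjusted p = 0.000255).

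Muscle genes named in the table were few and did not share a direction. Tm2, a tropomyosin, rose from 11.5 ± 1.77 to 161 ± 25.7 CPM (log2 fold change 3.81 with standard error 0.14, adjusted p = 8.53e-09), and Zasp66, a protein of the muscle Z-disc, from 27.8 ± 21.4 to 199 ± 30 CPM (log2 fold change 2.84 with standard error 0.42, adjusted p = 0.000113). Tm1 stood at 1405, 1828, 1396, 1599 and 3649 CPM at day 7 and at 939, 986, 934, 987 and 981 CPM at day 9 (log2 fold change -1.03 with standard error 0.25, adjusted p = 0.0037). Day 7 replicate 5 was the highest of its age in Tm1 and in Zasp66, and their part in the cuticle and Osiris values of that library was not tested.

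Genes of neuronal receptors and channels were mostly higher, 16 of 20 tested (80%) against 3 lower (15%), with a median log2 fold change of 1.05. Of all tested genes 36.9% were higher and 35.6% lower. Slo, a calcium-activated potassium channel, rose from 53.7 ± 5.44 to 124 ± 20.3 CPM (log2 fold change 1.21 with standard error 0.11, adjusted p = 3.65e-06). Para, the voltage-gated sodium channel, went from 23.2 ± 1.65 to 50.4 ± 13.1 CPM (log2 fold change 1.12 with standard error 0.17, adjusted p = 0.000124), and the nicotinic acetylcholine receptor subunit nAChRa2 from 19.7 ± 1.9 to 44.8 ± 5.28 CPM (log2 fold change 1.18 with standard error 0.09, adjusted p = 9.77e-07). In contrast nAChRa9 and nAChRb3 fell from 5.05 ± 1.18 to 0.7 ± 0.322 CPM and from 7.63 ± 1.83 to 2.19 ± 0.289 CPM, with log2 fold changes of -2.84 (standard error 0.31, adjusted p = 1.03e-05) and -1.80 (standard error 0.18, adjusted p = 4.57e-06).

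Odorant receptor genes were near the limit of detection, and 91 of 214 had enough counts to test. Of these 34 (37.4%) were higher and 20 (22.0%) lower, against 36.9% and 35.6% of all genes, and 28 and 17 differed by at least 2-fold. The numbers follow the filter, with 74 higher without a filter and 12 with a minimum count of 50. Or180 fell from 8.44 ± 1.04 to 0.436 ± 0.126 CPM (log2 fold change -4.27 with standard error 0.20, adjusted p = 3.33e-08) and Or158 from 6.77 ± 0.929 to 0.462 ± 0.119 CPM (log2 fold change -3.86 with standard error 0.18, adjusted p = 2.99e-08). Or3 rose from 0.119 ± 0.0605 to 4.92 ± 0.81 CPM (log2 fold change 5.36 with standard error 0.34, adjusted p = 2.09e-07). Members of this family are alike in sequence, with the same limit as for the CPR genes. Of 46 gustatory receptor genes 8 could be tested, 3 of them (37.5%) higher and 2 (25%) lower, against 36.9% and 35.6% of all genes. No direction is read for them, and with a minimum count of 50 the calls were 1 higher and 1 lower. The opsin Lop1 fell from 1.23 ± 0.271 to 0.242 ± 0.121 CPM (log2 fold change -2.35 with standard error 0.33, adjusted p = 7.49e-05).

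Of 30 tested serine proteases 10 (33.3%) were higher and 17 (56.7%) lower, against 36.9% and 35.6% of all genes, with a median log2 fold change of -0.88. SP115 rose from 11.5 ± 1.11 to 243 ± 46.4 CPM (log2 fold change 4.40 with standard error 0.14, adjusted p = 4.28e-09), SP37 rose from 4.89 ± 1.29 to 159 ± 90.5 CPM (log2 fold change 5.02 with standard error 0.43, adjusted p = 1.8e-06, and 4.29 without day 9 replicates 2 and 4), and SP16 fell from 578 ± 43.1 to 94.3 ± 16.7 CPM (log2 fold change -2.62 with standard error 0.12, adjusted p = 3.26e-08). Of 5 tested serine protease homologues 3 were lower and none higher. SPH103, one of them, fell from 22.3 ± 11.2 to 0.0547 ± 0.0647 CPM (log2 fold change -8.56 with standard error 0.63, adjusted p = 5.63e-07). Of 35 cytochrome P450 genes 14 (40%) were higher and 12 (34.3%) lower, shares near those of all genes, so no direction is read for the family. CYP4G43 and CYP4G44, of the family that makes cuticular hydrocarbons, fell from 2479 ± 261 to 957 ± 65.1 CPM (log2 fold change -1.37 with standard error 0.10, adjusted p = 6.91e-07) and from 145 ± 20.9 to 1.87 ± 0.679 CPM (log2 fold change -6.27 with standard error 0.27, adjusted p = 1.87e-08). Glutathione transferases (5 higher and 6 lower of 16) and carboxylesterases (4 and 4 of 11) were also near the shares of all genes.

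Of the 5 most counted genes at either age, 3 carry only placeholder symbols and lie outside the Osiris block. Nothing is said of what they encode. LOC103316959 and LOC100118785 fell from 24412 ± 2929 to 24.6 ± 4.14 CPM and from 19954 ± 4769 to 33.9 ± 15.7 CPM, with log2 fold changes of -9.95 (standard error 0.30, adjusted p = 2.82e-09) and -9.20 (standard error 0.48, adjusted p = 5.44e-08). LOC100122394 stood at 1.24, 0.739, 1.31, 2.28 and 4 CPM at day 7 and at 15959, 8135, 14109, 6984 and 16908 CPM at day 9, where replicates 2 and 4 were the lowest (log2 fold change 12.67 with standard error 0.70, adjusted p = 8.48e-08).

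The genes of the sex determination pathway were examined by an exact permutation test over the 10 libraries as well, whose smallest possible p is 0.00794. Fru, fruitless, a transcription factor of sexual behaviour, rose from 74.7 ± 6.42 to 215 ± 36.2 CPM, a difference of 1.51 in mean log2 CPM (two-sided exact permutation p = 0.00794). Tra was higher by 0.16 in mean log2 CPM (two-sided exact permutation p = 0.00794, adjusted p = 0.00988 in the fit over all genes). Dsx, doublesex, which sits at the end of the pathway, held 243 ± 10.1 CPM at day 7 and 229 ± 6.44 CPM at day 9, its ages overlapped, and it did not pass the test over all genes (log2 fold change -0.09 with standard error 0.05, adjusted p = 0.115), while the exact permutation p of its difference of -0.08 in mean log2 CPM was 0.0397. Scaling by library totals turned the sign of the Dsx difference (log2 fold change 0.16, adjusted p = 0.101).

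The same ages were also collected in 10 other female libraries, labelled as injected with double-stranded RNA against dsx. These share no library with the control females. Dsx, the labelled target, stood at 253 ± 19.2 and 226 ± 17.3 CPM at the 2 ages there, scaled among those libraries, against 243 ± 10.1 and 229 ± 6.44 CPM in the control females, so a lower level of the target was not seen. They gave 1719 genes (14.8%) higher and 1403 (12.1%) lower by at least 2-fold. Of the 1724 and 1520 genes of the control females, 1500 (87.0%) and 1293 (85.1%) were called in the same direction there, which were 87.3% and 92.2% of the calls in the dsx-labelled females, and 0 were called in opposite directions by at least 2-fold. CYP314A1 had a log2 fold change of 3.89 (standard error 0.07), Hex70b of 3.66 (standard error 0.20), CPR37 of -6.87 (standard error 0.19), cycB of -2.58 (standard error 0.09) and Osi7 of 14.11 (standard error 0.65) in those libraries. All 62 tested respiratory chain and ATP synthase genes were higher there too, against 38.8% of all genes. CPR20 and Y-y, whose control female values turned on single libraries, had log2 fold changes of -2.12 (standard error 0.52, adjusted p = 0.0034) and 0.96 (standard error 0.47, adjusted p = 0.0859) there.

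Control males of the same ages shared part of the change. They gave 2155 genes (17.8%) higher and 961 (7.95%) lower by at least 2-fold. Of the female genes 1076 (62.4%) and 767 (50.5%) were called in the same direction in males, and 80 were called in the opposite direction. The difference between the female and the male change was called for 1594 genes (12.8% of 12412) in which the change was more positive in females and for 2300 (18.5%) in which it was more negative. That balance depends on the scaling, since 40.9% of the calls were of the first kind with all libraries, 75.4% with library totals only, and between 63.1% and 66.5% without female day 9 replicate 1, 3 or 5 or male day 9 replicate 2, where the median difference over all genes moved from -0.03 to between 0.11 and 0.13.

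The respiratory chain and ATP synthase genes rose in males as well. All 64 tested members were higher, against 36.6% of all genes, with a median log2 fold change of 0.83. The difference between the sexes was called for 6 of the 64, each more positive in females, against 12.8% of all genes called in that direction. No difference between the sexes is therefore read for the list. Of the 8 complex IV symbols 6 could be tested in females. With both sexes scaled together, the others averaged at most 0.0077 CPM at either female age. In males they rose from 6.11 to 28.7 and from 5.37 to 28.9 CPM. They count among the 64, but their difference in change between the sexes cannot be read. Among the cell cycle genes, cycB moved in opposite directions in the sexes. On the scale of the 20 control larval libraries it fell from 39.1 ± 2.38 to 6.11 ± 1.03 CPM in females and rose from 38.5 ± 2.71 to 60.5 ± 4.67 CPM in males, a difference in log2 fold change of -3.33 (standard error 0.14, adjusted p = 4.07e-12). Cht5 rose in females and did not pass the test in males (280 ± 34 to 214 ± 162 CPM), with a difference of 2.39 (standard error 0.59, adjusted p = 0.00461). The rise of CYP314A1 was smaller in males, which reached 149 ± 43.6 CPM at day 9, with a difference of 1.28 (standard error 0.24, adjusted p = 0.000576). oskar rose in females and fell in males from 22.5 ± 0.92 to 16.1 ± 2.81 CPM (difference 1.60, standard error 0.23, adjusted p = 4.01e-05). faa rose from 24.9 ± 3.09 to 75.5 ± 24.8 CPM in females and stood at 31.8 ± 1.59 and 28.9 ± 9.61 CPM in males (difference 1.74, standard error 0.31, adjusted p = 0.000294).

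The change of cuticle genes was more negative in females on the log2 scale. In males 15 of 29 tested CPR genes were higher and 10 lower, against 36.6% and 33.8% of all genes, and over the 27 CPR genes tested in each sex the median log2 fold change was 1.48 in males and -2.08 in females. Of the 32 CPR genes tested in both sexes together the difference was called negative for 15 and positive for 1, and of 13 other cuticle genes it was called negative for 8 and positive for 0. Over all genes it was called negative for 18.5% and positive for 12.8%. CPLCP2 went from 42814 ± 6284 to 45.1 ± 52.7 CPM in females and from 24788 ± 11927 to 1941 ± 401 CPM in males (difference -6.22, standard error 0.90, adjusted p = 4.09e-05). The rise of apd-3 was larger in males, where it reached 71459 ± 16756 CPM at day 9 against 10004 ± 9955 CPM in females (difference -4.66, standard error 1.02, adjusted p = 0.00192). Y-y and CPR20 were below 2 CPM in the control female libraries other than day 9 replicates 2 and 4, and rose in males to 183 ± 71.2 and 49.7 ± 26.2 CPM, with differences of -7.44 (standard error 1.07, adjusted p = 3.88e-05) and -6.56 (standard error 0.96, adjusted p = 4.34e-05). In females Y-y held 15.1 and 5.65 CPM in day 9 replicates 2 and 4 and 1.01 to 1.39 CPM in the others, and its own call (log2 fold change 1.84, adjusted p = 0.0454) turned to -0.24 without them. CPR20 held 2.33 CPM in day 9 replicate 2 and at most 0.307 CPM in the other 4 (log2 fold change -0.38, adjusted p = 0.7), and without replicate 2 it was called lower, at -2.32 (adjusted p = 0.000858). In both apd-3 and Y-y the day 9 female libraries with the highest values were replicates 2 and 4, and the male mean lay above them.

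**Figure D4:**
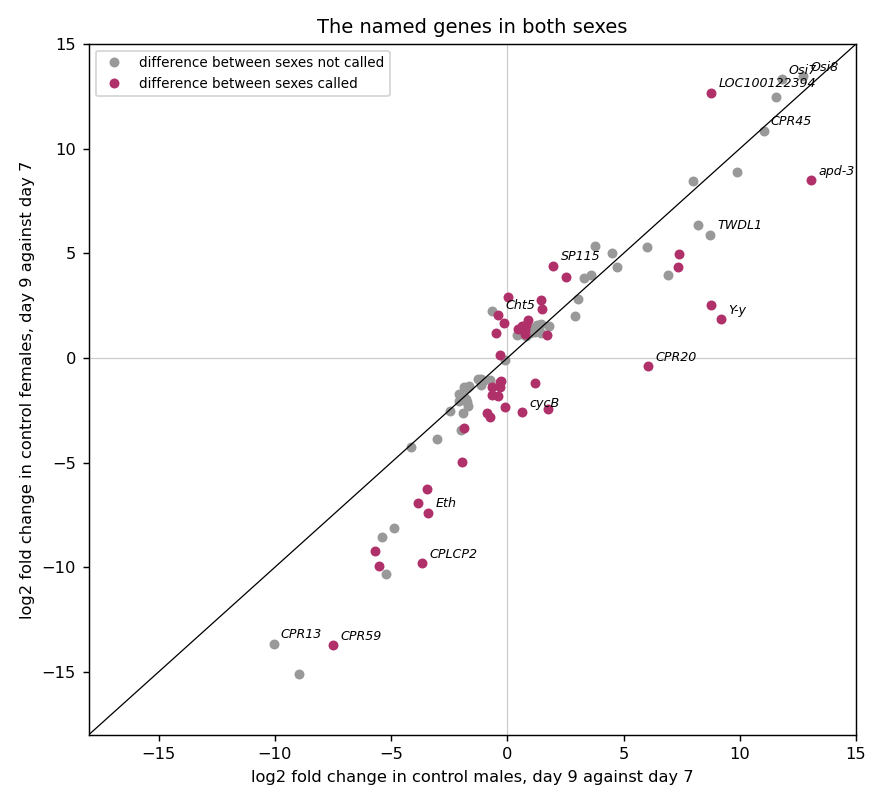
Log2 fold changes at day 9 against day 7 of genes named by rule, with control males on the x axis and control females on the y axis, each from its own 10 libraries. Genes in which the difference between the sexes was called are in magenta, the diagonal marks equal change, and genes with at most 3 counts at an age in females are left out. cycB, CPR20, Y-y, CPLCP2 and apd-3 lie below the diagonal, Cht5, SP115 and LOC100122394 above it, and Osi7, Osi8 and CPR45 near it.

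Set against the other stages of control females, the genes that rose at day 9 fell into several courses. On a common scale over the 35 control female libraries, Osi7 stood at 7262 CPM at day 9 (range 3552 to 11556 over 5 libraries) against 0.15 to 2.66 CPM at day 7, 0.95 to 318 CPM in embryos and 0.126 to 0.197 CPM in day 11 pupae. Hex70b was likewise highest at day 9, with 12228 CPM against 792 at day 7 and 7.73 in pupae, and none of its libraries at day 9 overlapped those of another stage. Of the 20 genes of the Osiris block, 12 had their highest mean at day 9 and 8 in embryos. apd-3 went on rising, to 34266 CPM in pupae (range 27158 to 44888) from 9906 at day 9 (range 1377 to 22224). The respiratory genes did so too, and 57 of the 62 had their highest mean in pupae and 5 in adult thoraces, Atp5b for instance with 549, 1331, 8222 and 3361 CPM at day 7, at day 9, in pupae and in thoraces. CYP314A1 stood at 311 CPM at day 9 and next highest in adult abdomens with 124 CPM, the ranges not overlapping.

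The genes that fell were also spread over the stages. CPR1 was at its highest at day 7 with 18404 CPM, and no other stage exceeded 41.3 CPM in any library. CPR59 stood at 2937 CPM in embryos (range 1648 to 4864) and at 5666 CPM at day 7 (range 3680 to 8169), with overlapping ranges, and below 1 CPM in each library of the later stages. Of the 29 CPR genes, 7 had their highest mean at day 7 and 2 at day 9, against 11 in embryos, 5 in pupae and 4 in adult thoraces. cycB had its highest level in adult abdomens with 497 CPM, and 13 of the 17 cell cycle genes peaked there. These stages differ in tissue and handling as well as age, and the differences between them were not tested. The embryos were offspring of the injected generation and were pooled in larger numbers than the larvae. For embryos, pupae and adult parts the GFP injection was later than for both larval ages.

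**Figure D5:**
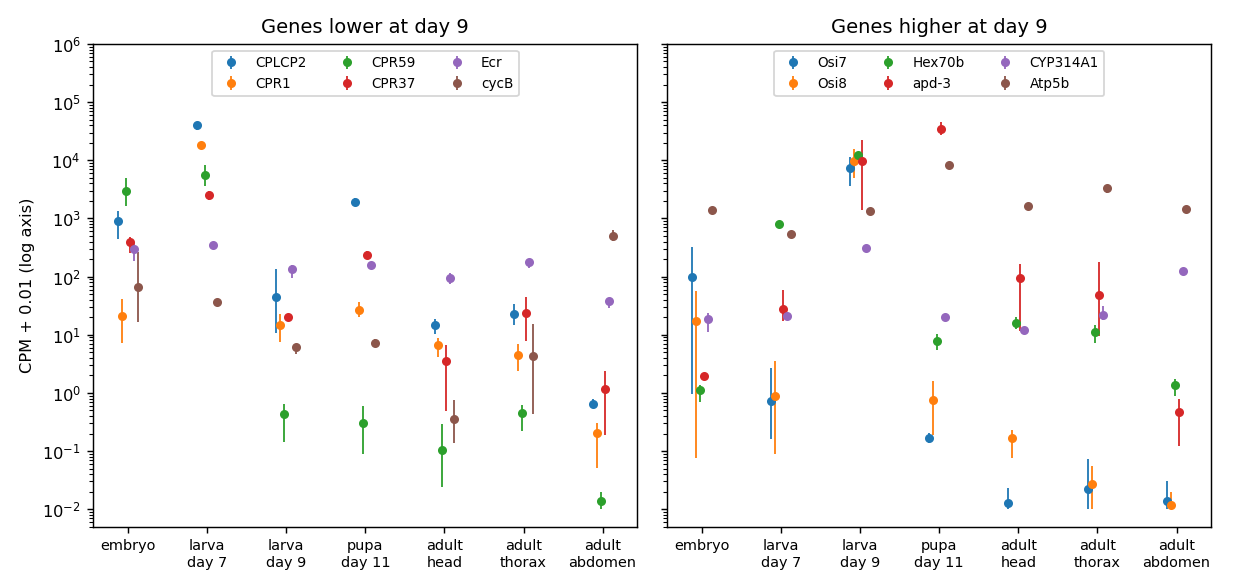
Mean CPM plus 0.01 on a log axis of 6 genes lower (left) and 6 genes higher (right) at day 9 than at day 7, across the stages of control females, with lines from the lowest to the highest of 5 libraries. Osi7, Osi8 and Hex70b are highest at day 9, apd-3 and Atp5b are higher still in pupae, and CPR1 is high only at day 7.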

How the data were processed

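RNA was sequenced from pools of whole larvae as paired reads on a NovaSeq after library preparation with a NEBNext Ultra RNA kit, per the labels' protocols. The deposited values are whole-number counts per gene, made by the authors for 15471 genes in 140 libraries, and the submitters' processing notes name HISAT2 2.0.5 and HTSeq 0.6.1. The sources used here do not give the genome build, the counting annotation or the strand setting. From the counts, genes with too few reads were removed with filterByExpr (minimum count 10), libraries were scaled by the trimmed mean of M-values, and day 9 was compared with day 7 by edgeR's quasi-likelihood test (edgeR 4.0.16, R 4.3.3) with Benjamini-Hochberg adjustment over all tested genes. Log2 fold changes carry a prior count of 0.125, and the standard error is the size of the log2 fold change divided by the square root of the F statistic. A gene was called at an adjusted p under 0.05, and a second call also asked for a log2 fold change of at least 1. Differences between the sexes were tested as an interaction over 20 libraries that share 1 estimate of the spread. Exact permutation tests used log2(CPM + 0.01). Ratios for genes with 1 to 3 counts at an age carry 95% intervals that cover counting error only. On simulated counts with 200 of 11574 genes changed, up and down alike, the main comparison recovered 72% of 2-fold and 53% of 1.5-fold changes. Most genes differed in the data, which changes the adjustment of p-values, so these rates do not carry over to the data. They also do not probe the dependence on scaling.

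The members, the lists and the rules were chosen with earlier results of these data known, and the lists were rewritten to the symbols of the count table after results were seen, because no gene descriptions were used here. Named genes were chosen by a rule: the 10 largest rises and falls without overlap between ages, the 5 most counted genes at each age, the leading members of each list, all genes of ecdysteroid signalling and sex determination, and those that differed most between the sexes. The rule named 104 genes, of which the results give 73, and 10 others are named beside them to complete a count or mark a block, with their values known, as are those in the closing observations. Alternatives were other scalings, other filters, DESeq2 1.42.0, a replicate block, a fit with both sexes and leaving out each library. Leaving out day 9 replicates 2 and 4 together was chosen after seeing the data. No sequences, coordinates or annotated names of unnamed genes were used here.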

Additional observations from a re-analysis of the deposited data

Results flagged for a closer look

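In 21 of 150 groups of 5 libraries, over the 83 genes named in the results, 1 library lay far from the other 4 by Dixon's criterion. That criterion flags about 1 in 20 groups of independent, normally distributed values. The named genes were chosen partly for large changes and include neighbours that vary together. Their flags are therefore not independent, and 21 cannot be weighed against that rate. Day 7 replicate 5 was the library in 17 of the 21. It was the highest of its age in the cuticle genes CPR13 (2481 CPM against a group median of 518), CPR14 (4014 against 684), CPR15 (1750 against 431), CPR7 (542 against 118), CPR8 (25.7 against 9.89), CPR9 (61.4 against 10.3), TWDL1 (54.5 against 6.92) and apd-3 (60.5 against 22.4). It was also the highest in Osi7 (2.77 against 0.251), Osi8 (3.64 against 0.293) and their neighbour LOC100117781 (8.36 against 2.14). The same held for the muscle genes Tm1 (3649 against 1599) and Zasp66 (64.9 against 17.8), for Y-h (7.36 against 1.92), Y-y (1.83 against 1.24) and Or158 (8.35 against 6.59), and it was the lowest in Emc (120 against 173). The other 4 were Cdk4 (144 CPM) and Hex70b (941 CPM), highest in day 7 replicate 4, oskar (1.64 CPM), lowest in day 7 replicate 3, and CPR20 (2.33 CPM), highest in day 9 replicate 2.

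The change from day 7 to day 9 differed between control females and control males in 38 of these genes, by the interaction test of edgeR over all genes. Of all 12412 genes in that test 12.8% were called more positive and 18.5% more negative in females. Some of the named genes were chosen because they differed most between the sexes, so 38 cannot be weighed against those shares. Values are the female minus the male log2 fold change. Among cuticle genes they were -3.11 for CPLCP1, -6.22 for CPLCP2, -6.56 for CPR20, -3.17 for CPR37, 0.78 for CPR49, -2.49 for CPR53, -6.31 for CPR59, -6.96 for CPR8, -1.85 for Cpap3-b and -4.66 for apd-3. Among genes of moulting and cuticle pigment or lipid they were -1.58 for Burs, 1.28 for CYP314A1, -0.79 for CYP4G43, -2.88 for CYP4G44, 2.39 for Cht5, -4.07 for Eth, -7.44 for Y-y and 0.86 for ppo3. Osi19 differed by -6.26, and at 14 and 102 counts in all in females its value is uncertain. In the cell cycle, mitochondrial and ribosomal genes they were -3.33 for cycB, 0.24 for E2f8, 0.41 for Cyc1 and -0.66 for Rpl39. Among neuronal genes and receptors they were -0.66 for Para, -2.19 for nAChRa9, -1.50 for nAChRb3 and -2.34 for Lop1. For Fru, Tra, Hb and oskar they were 0.80, 0.37, 2.80 and 1.60. The remaining values were 2.34 for SP115, 1.74 for faa, -1.71 for Hex83, 3.92 for LOC100117666, -3.62 for LOC100118785, 3.83 for LOC100122394 and -4.51 for LOC103316959. Small values are within reach of the scaling, since library totals moved the median difference over all genes from -0.03 to 0.26.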

How the results depend on the processing

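With library totals in place of composition scaling, 2613 genes instead of 4121 were called lower at day 9, and for the difference between the sexes 4431 were called more positive in females (574 by at least 2-fold) and 1447 more negative. No other scaling, filter or tool moved a count of calls over all genes by over 1.5 times. Counts within small lists did move, most among odorant receptors, where 34 higher became 74 without a filter, 12 at a minimum count of 50 and 56 in the fit with both sexes, and 20 lower became 7 at a minimum count of 50. Leaving out 1 library gave 4112 to 4249 genes higher and 3981 to 4150 lower in control females (1669 to 1784 and 1509 to 1593 by at least 2-fold), and 4403 to 4509 and 4148 to 4275 in dsx-labelled females (1678 to 1785 and 1385 to 1488). For the difference between the sexes it gave 1339 to 3582 and 1727 to 2418 (261 to 429 and 1083 to 1353), with 3004, 3034 and 2997 more positive in females without female day 9 replicate 1, 3 or 5 and 3582 without male day 9 replicate 2. The cause was not tested. Of 104 genes named by rule, 96 kept their direction and side of the threshold in each of 19 settings that could be fitted. Dsx turned to 0.16 with library totals and passed the test with DESeq2 (adjusted p = 0.0227) and in the fit with both sexes (adjusted p = 0.0374). Y-y turned to -0.24 without day 9 replicates 2 and 4. Tra no longer passed in the fit with both sexes (adjusted p = 0.141). Genes with few counts, such as Osi19, Eth and most odorant receptors, are limited by depth, and at 0 to 3 counts only a bound or a ratio can be given.

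Replicate numbers are shared between the ages, but they do not pair the libraries. The deviations of same-numbered libraries from their group means had correlations of 0.02, -0.05, 0.06, -0.11 and -0.11 across genes, and 1 of the 5 day 7 libraries correlated best with its own number. With the replicate block 4113 genes were higher and 3995 lower in control females (1686 and 1521 by at least 2-fold), 4363 and 4171 in dsx-labelled females, and 1385 and 2215 for the difference between the sexes. Among the genes named by rule CPLCP3 (adjusted p = 0.08) and Y-y (adjusted p = 0.276) no longer passed under it.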

Other observations

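Runs of neighbouring genes that moved the same way went beyond the blocks already described. Runs were counted along the tested genes in reference order, so genes that were not tested are skipped within them. By this count 9 runs of 5 or more genes were all higher by at least 2-fold and 12 were all lower. In each direction 2 runs held 10 or more genes. These counts include the runs in the Osiris and CPR1 to CPR15 blocks. A run of 13 genes from LOC100123404 to LOC100301488 was lower and holds the odorant receptors Or218, Or219, Or221, Or224, Or225 and Or226. A run of 13 genes from LOC107980663 to LOC100678526 was higher and holds no named gene. A run of 7 genes with CPR45, CPR44, CPR43 and Or43 was higher, while the CPR1 to CPR15 block was mostly lower, so CPR neighbours moved together but in opposite directions at different places. Runs were found after the values were seen and have no test, and similar neighbours can share reads.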
